A study of Mus musculus with 24 samples.

Results

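Integrins and their adhesion partners were followed here in cultured mouse leukemia cells. The group holds 33 genes: 20 integrin subunits, 3 cytoplasmic linkers, 4 counter-receptors on other cells, a selectin ligand and a hyaluronan receptor, 2 matrix ligands and 2 cadherins. They were picked by symbol, and all 33 were found among the 24421 rows of each of the 2 count tables, the 24557 rows of the MLL-AF10 table and the 24340 rows of the MLL-AF9 table. The series looked for targets of 3 leukemia fusions and for genes under the control of the kinase JAK1.

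Integrins are cell surface receptors made of an α and a β subunit, and they tie the actin skeleton to matrix proteins or to receptors on neighbouring cells. Talin and kindlin bind the β tail inside the cell and switch the receptor to its high-affinity form. In myeloid cells the β2 integrins serve firm adhesion, migration out of vessels and phagocytosis, whereas α4 and α5 with β1 hold immature cells to VCAM-1 and fibronectin in the marrow.

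RNA-seq was done on 24 libraries of C57BL/6 bone marrow leukemia cells grown with SCF, IL3 and IL6, in 4 comparisons of 3 against 3. CALM-AF10 cells with the fusion off were set against cells with it on. Those cells carried an inducible fusion on a wild type genotype and were labelled DOX or DMSO, and no source used here ties off and on to either label. MLL-AF10 and MLL-AF9 cells, also with an inducible fusion and a wild type genotype, were compared as DOX against DMSO. Whether DOX turned a fusion off or on is not stated in the labels. Kmt2a (MLL) was lower with DOX in MLL-AF10 (log2 difference -0.59, limma adjusted p = 1.13e-06). In MLL-AF9 it averaged 5.61 FPKM in DOX and 13.7 in DMSO libraries (limma adjusted p = 0.00126). How much of these values came from the fusion was not tested. In the last comparison CALM-AF10 cells null for Jak1 (genotype Jak1 deleted, by Cre-ER after 4-OHT) were set against CALM-AF10 cells with the gene floxed (genotype Jak1 floxed). The columns read as floxed are headed DMSO, the vehicle, so 4-OHT exposure and loss of Jak1 cannot be told apart here. By label both groups carried the fusion. Picalm (CALM) averaged 5120 scaled counts in null and 7310 in floxed libraries (log2 fold change -0.51, edgeR adjusted p = 5.32e-15). For Mllt10 (AF10) the log2 fold change was -0.10 (edgeR adjusted p = 0.0135). The part of these differences in the changes of members was not tested. MLL-AF9 libraries are labelled total RNA, and the other experiments polyA RNA. The sources used here give no dose, time, promoter of the inducible fusions or number of clones. No label states that replicates were separate cultures, so p-values reflect only the spread among the libraries, possibly a technical one.

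Library totals were 12130633 to 37445525 counts in off and 24448224 to 40187404 in on libraries, and 12264344 to 12855096 in null and 11743388 to 13764632 in floxed libraries. The steps between low FPKM values give only the relative depth in MLL-AF9. On that measure DOX replicate 1 had 0.292 of the depth of DOX replicate 3, the deepest, and the other libraries lay between 0.665 and 0.972. No depth could be had for MLL-AF10, whose values are deposited as log2 values. Jak1 itself had 2073, 1919 and 1933 scaled counts in null libraries, against 2451, 2443 and 2480 in floxed libraries, over the whole gene and not the deleted exons. The leukocyte gene Ptprc was abundant and not called in any comparison, for example with 78.7 to 85.3 FPKM in DOX and 60.3 to 71.9 FPKM in DMSO libraries of MLL-AF9. Markers of B cells and erythroid cells had 0 called in any comparison, and Lck was the T cell marker called, lower in null cells. Among mast cell markers 1 of 5 rose in off cells and 1 of 4 in MLL-AF10 with DOX. Progenitor markers moved both ways in all but MLL-AF9, and Cd34 fell in all 4 comparisons. Endothelial markers had 1 called, Cdh5, lower in null cells. Of stromal markers, Lepr fell in off cells, Pdgfrb and Cxcl12 rose and Lepr fell in null cells, and Pdgfrb fell in MLL-AF10.

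Genes were called at a Benjamini-Hochberg adjusted p under 0.05 over all genes tested, with edgeR for the count tables and limma for MLL-AF10 and MLL-AF9. With CALM-AF10 off, 4 of 28 members tested were called (14.3%), against 5.24% of all genes. Itgb2l rose, where 2.13% of all genes did, and Cdh2, Spp1 and Itga2b fell, where 3.11% did. In Jak1 null cells 23 of 26 members tested were called (88.5%), 6 higher and 17 lower, where 55.7% of all genes were called (27.4% higher and 28.3% lower). In MLL-AF10 cells with DOX 11 of 26 were called (42.3%), 6 higher and 5 lower, against 19.8% of all genes (10.6% higher and 9.17% lower). In MLL-AF9 cells with DOX 13 of 26 were called (50%), 11 higher and 2 lower, against 11.8% of all genes (7.23% higher and 4.54% lower). Leaving out 1 library at a time gave 2 to 5 called members with CALM-AF10 off, where 2 were called without on 2, on 3 or off 2, and 20 to 22 in Jak1 null cells, 10 to 14 in MLL-AF10 and 9 to 12 in MLL-AF9. With the replicate number as a block, 15 members were called in MLL-AF10, 6 higher and 9 lower, against 3102 of all genes.

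The median log2 fold change of the members tested was -0.02 with CALM-AF10 off, -0.14 in Jak1 null cells, 0.01 in MLL-AF10 and 0.42 in MLL-AF9, beside medians over all genes of -0.003, 0.01, 0.0006 and -0.02. In all, 28 members were called somewhere, 14 in at least 2 comparisons, 7 in at least 3, and Itgb2l and Spp1 in all 4. Itgb1 and Itgae were tested but never called. Itga2, Itga3 and Itga9 were too low to test in any table. Of the members called, 13 were higher in 1 comparison and lower in another. These counts across comparisons were not made over all genes, of which 55.7% were called in Jak1 null cells alone.

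**Figure D1:**
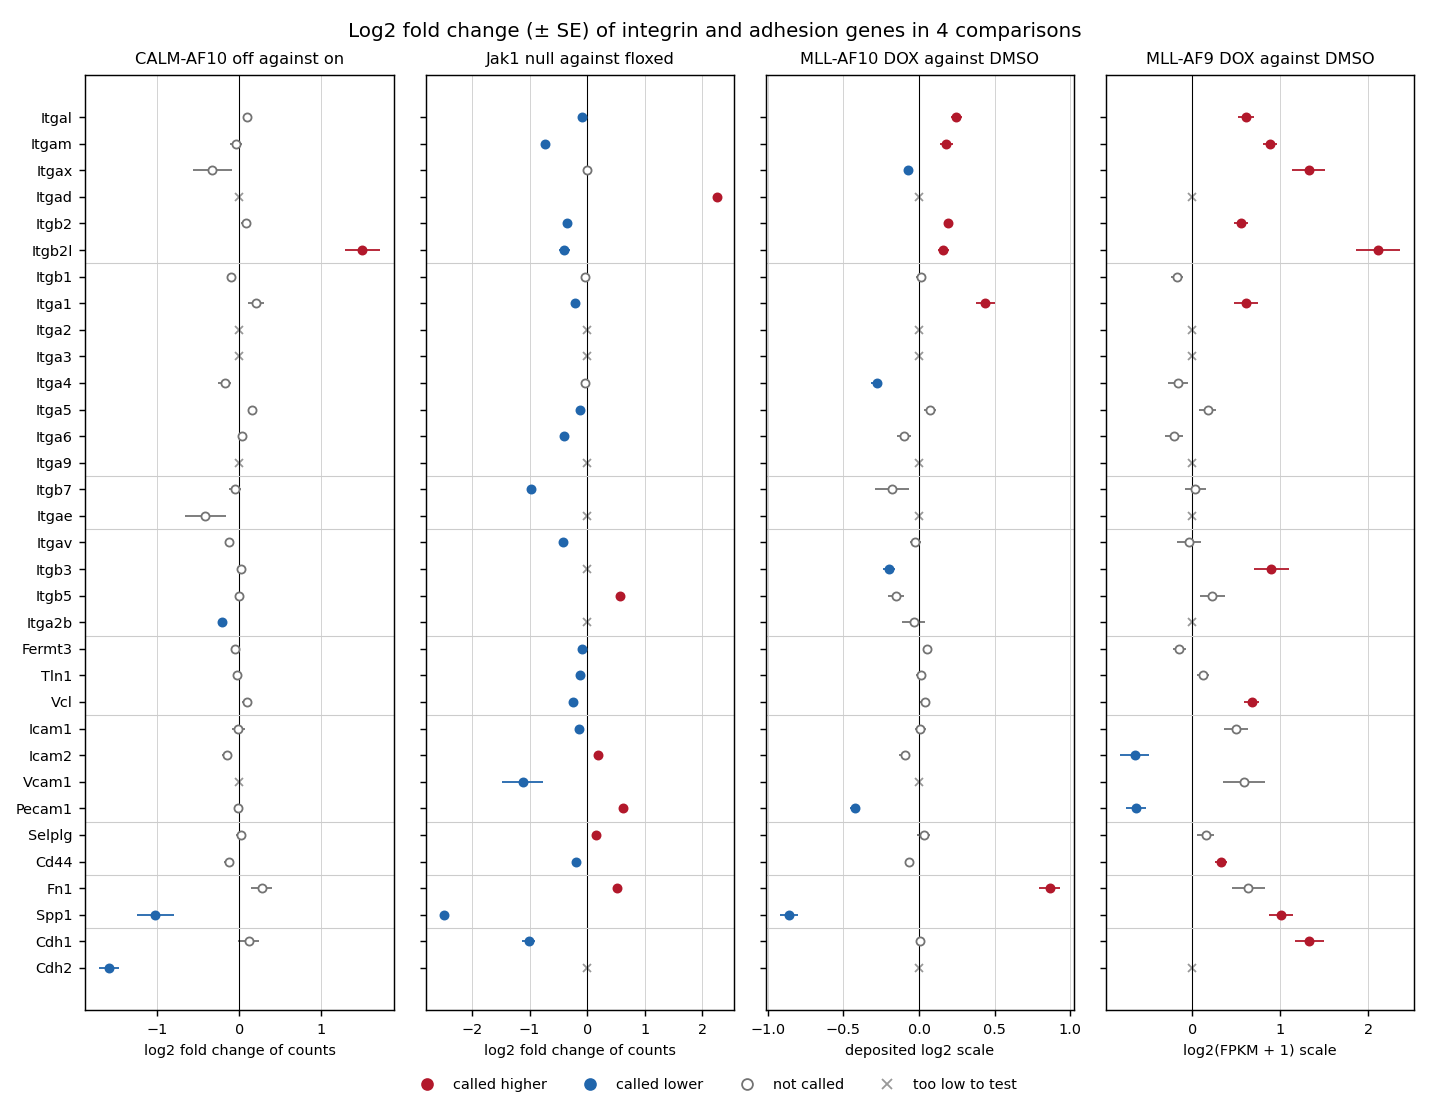
Each point is the log2 fold change of 1 gene (off against on, null against floxed or DOX against DMSO), with its standard error as a bar. Filled red points were called higher, filled blue points called lower, open points were not called and crosses mark genes too low to test. The MLL-AF10 axis is the deposited log2 scale, which is probably compressed, and the MLL-AF9 axis is the log2(FPKM + 1) scale.

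Among the leukocyte β2 integrins, all 5 tested genes rose with DOX in MLL-AF9 (Itgb2l passed the filter on low values only through DOX libraries), and 4 of 5 rose and Itgax fell in MLL-AF10. In Jak1 null cells 4 of 6 fell and Itgad rose. With CALM-AF10 off 1 of 5 tested was called, Itgb2l. Their median log2 fold changes were 0.88, 0.18, -0.22 and 0.08 in MLL-AF9, MLL-AF10, Jak1 null and off cells. Of all genes, 7.23% rose in MLL-AF9, and 10.6% rose and 9.17% fell in MLL-AF10. In Jak1 null cells 28.3% of all genes fell and 27.4% rose, and 2.13% rose with CALM-AF10 off. The α subunit genes Itgal, Itgam, Itgax and Itgad lie on mouse chromosome 7. In mm9, Itgam spans 135206154 to 135271674, Itgax 135273061 to 135294171 and Itgad 135297890 to 135349015, next to each other on the plus strand, and Itgal spans 134439774 to 134478651.

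Itgam encodes CD11b, the α subunit of Mac-1, and Itgb2 encodes CD18, the β chain shared by this family. In the Jak1 experiment Itgam had 5316, 5433 and 5321 scaled counts in null libraries, against 8613, 9282 and 8914 in floxed libraries. Itgb2 had 6155, 6284 and 6093 scaled counts in null libraries, against 7961, 7842 and 7781 in floxed libraries. Every null library was below every floxed library for both genes. The log2 fold change was -0.74 ± 0.03 (SE) for Itgam (edgeR adjusted p = 1.40e-18) and -0.35 ± 0.03 for Itgb2 (adjusted p = 1.96e-11). In MLL-AF9, Itgam had 306, 312 and 307 FPKM in DOX libraries, against 175, 152 and 175 in DMSO libraries. Itgb2 there had 304, 312 and 312 FPKM in DOX libraries, against 222, 195 and 213 in DMSO libraries. DOX libraries stood above all DMSO libraries for both. The gains on the log2(FPKM + 1) scale were 0.88 ± 0.08 (limma adjusted p = 0.00103) and 0.56 ± 0.08 (adjusted p = 0.00476). In MLL-AF10, where values are deposited log2 units, Itgam had 11.63, 11.55 and 11.55 deposited log2 units in DOX libraries, against 11.29, 11.48 and 11.42 in DMSO libraries. Itgb2 in the same libraries had 10.93, 10.88 and 10.89 deposited log2 units in DOX libraries, against 10.70, 10.74 and 10.69 in DMSO libraries. The groups did not overlap, and the differences of 0.18 ± 0.04 (adjusted p = 0.00754) and 0.19 ± 0.03 (adjusted p = 3.25e-04) were called. With CALM-AF10 off, neither gene was called: Itgam averaged 16399 ± 1468 in off libraries and 16850.3 ± 1022 in on libraries (SD, n = 3 each) scaled counts (log2 fold change -0.04 ± 0.07), and Itgb2 averaged 10089 ± 573 in off libraries and 9553 ± 229 in on libraries (SD, n = 3 each) (log2 fold change 0.08 ± 0.05).

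Some neutrophil marker genes (of Ltf, Ngp, Camp, Ly6g, Cd177) were called in every comparison, also with CALM-AF10 off, where Itgam and Itgb2 were not. In MLL-AF9 all 4 measured rose, with a summed 2062 to 2335 FPKM in DOX libraries, against 276 to 341 FPKM in DMSO libraries. In MLL-AF10 3 of 4 tested rose, with a sum of 618 to 868 in DOX and 388 to 433 in DMSO libraries after taking the log2 values back to a linear scale. With CALM-AF10 off 3 of 4 rose, with 2216 to 2448 summed scaled counts in off and 721 to 947 in on libraries. In the Jak1 experiment 2 rose and 2 fell, with 18810 to 20080 summed scaled counts in null and 24350 to 24850 in floxed libraries. Of 6 macrophage markers (Adgre1, Csf1r, Mrc1, C1qa, C1qb, Marco), Adgre1 and Csf1r rose with DOX in MLL-AF9, with a summed 216.5 to 226.6 FPKM in DOX and 126.8 to 153.9 FPKM in DMSO libraries. Adgre1 and Mrc1 rose in MLL-AF10, with a linear sum of 2620 to 2772 in DOX and 2114 to 2450 in DMSO libraries. With CALM-AF10 off 0 of 5 tested were called, with 12190 to 14400 summed scaled counts in off and 11030 to 11940 in on libraries. The part of the neutrophil and macrophage markers in the integrin changes was not tested, and in bulk libraries fewer cells of a type cannot be told apart from less RNA per cell.

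**Figure D2:**
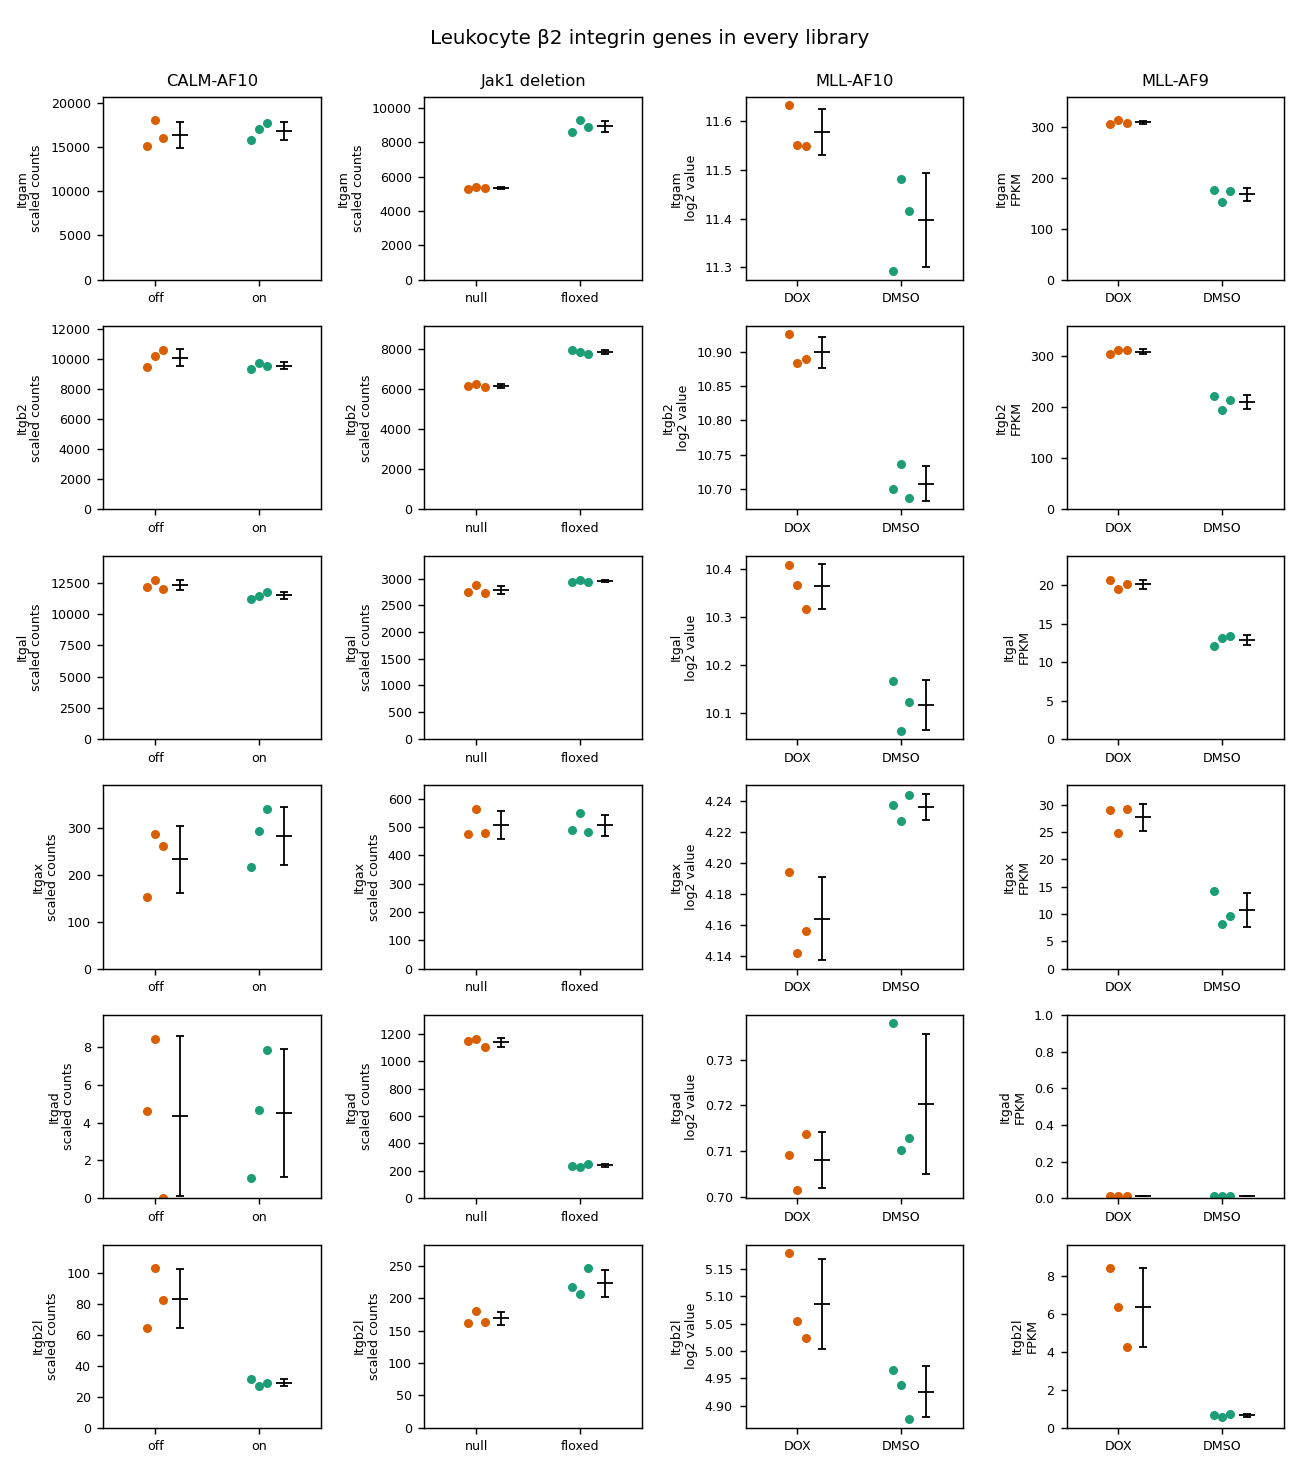
Points are single libraries of the 6 β2 integrin genes in the 4 experiments, with the group mean and SD beside them. The vertical axis is TMM-scaled counts for CALM-AF10 and Jak1, deposited log2 values for MLL-AF10 (axis not from 0) and FPKM for MLL-AF9. Itgad averages 1139.6 scaled counts in Jak1 null libraries and 239 in floxed libraries, and lies near its floor in the other tables.

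Itgal encodes CD11a, the α subunit of LFA-1, and its changes were small in Jak1 null cells. It had 2754, 2869.5 and 2728 scaled counts in null libraries, against 2937, 2978 and 2939.7 in floxed libraries (log2 fold change -0.08 ± 0.03 SE, edgeR adjusted p = 0.0328). That call was lost with DESeq2 and without 4 of the single libraries, null 1, null 3, floxed 2 and floxed 3, at adjusted p of 0.0602 to 0.126. In MLL-AF10 Itgal had 10.41, 10.37 and 10.32 deposited log2 units in DOX libraries, against 10.17, 10.06 and 10.12 in DMSO libraries (log2 difference 0.25 ± 0.04 SE, limma adjusted p = 1.88e-04). For MLL-AF9 the values were 20.7, 19.5 and 20.1 FPKM in DOX libraries, against 12.1, 13.2 and 13.4 in DMSO libraries (log2 difference 0.61 ± 0.09 SE, limma adjusted p = 0.00694). In both MLL models the groups were apart. Itgax encodes CD11c, an α subunit typical of dendritic cells and macrophages. The MLL-AF9 libraries had 29.0, 24.8 and 29.1 FPKM in DOX libraries, against 14.2, 8.23 and 9.64 in DMSO libraries (log2 difference 1.32 ± 0.19 SE, limma adjusted p = 0.00533), so that DOX libraries stood above all DMSO libraries. In MLL-AF10 its values were low and close together, 4.19, 4.14 and 4.16 deposited log2 units in DOX libraries, against 4.24, 4.23 and 4.24 in DMSO libraries (log2 difference -0.07 ± 0.02 SE, limma adjusted p = 0.0266). That small fall was not called without DMSO 2, DMSO 3, DOX 2 or DOX 3 (adjusted p 0.0536 to 0.127). Jak1 null and floxed cells averaged 506 ± 49.4 and 507 ± 37.7 scaled counts of Itgax (SD, n = 3 each; log2 fold change -0.01 ± 0.07, not called). Off libraries had 153, 287 and 263 scaled counts of Itgax, against 218, 295 and 341 in on libraries, and the groups overlapped.

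Itgad encodes CD11d, the remaining α partner of CD18, and it had the largest rise of any member in the Jak1 experiment. It had 1151, 1164 and 1103 scaled counts in null libraries, against 234, 231 and 252 in floxed libraries, 4.76-fold higher in null cells (log2 fold change 2.25 ± 0.05 SE, edgeR adjusted p = 6.59e-25). The groups were far apart and the change stayed between 2.23 and 2.29 when any 1 library was left out. Itgad shares exon bases on the opposite strand with Cox6a2, and how strand was used in counting is unknown, so their reads cannot be told apart. Cox6a2 had 10.7 to 11.2 scaled counts in null and 6.40 to 8.48 in floxed libraries. Elsewhere Itgad was at the floor: 0 to 9 raw counts in off and 1 to 11 in on libraries, and 0.01 FPKM, the lowest value of the table, in all 6 MLL-AF9 libraries. Macrophage markers moved both ways in Jak1 null cells: Csf1r, Mrc1 and C1qb rose, Adgre1 fell, and their list summed to 1938 to 1982 scaled counts in null and 2219 to 2445 in floxed libraries. Their part in the rise of Itgad was not tested.

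Itgb2l, a gene similar in sequence to Itgb2, was called in all 4 comparisons, and was higher in the 3 fusion models and lower in Jak1 null cells. With CALM-AF10 off it had 64.8, 103 and 83.0 scaled counts in off libraries, against 31.3, 26.9 and 29.2 in on libraries (log2 fold change 1.51 ± 0.22 SE, edgeR adjusted p = 0.0062). MLL-AF9 cells showed 8.39, 6.38 and 4.25 FPKM in DOX libraries, against 0.673, 0.550 and 0.738 in DMSO libraries, 9.7-fold as a ratio of means (log2 difference 2.11 ± 0.25 SE, limma adjusted p = 0.00283). For MLL-AF10 the values were 5.18, 5.06 and 5.02 deposited log2 units in DOX libraries, against 4.96, 4.94 and 4.87 in DMSO libraries (log2 difference 0.16 ± 0.04 SE, limma adjusted p = 0.00698). In MLL-AF9, Itgb2l passed the filter of a mean of at least 1 FPKM only through its DOX libraries, and its adjusted p with no filter on low values was 0.00481. Groups did not overlap in these 3 models. In the Jak1 experiment Itgb2l had 162, 180.3 and 164 scaled counts in null libraries, against 217, 206 and 246 in floxed libraries (log2 fold change -0.40 ± 0.09 SE, edgeR adjusted p = 6.72e-04), with every null library below the floxed ones. Its level is low, with 23 to 110 raw counts in the inducible CALM-AF10 libraries. Reads that match both Itgb2 and Itgb2l could be split between them by the counting, which is not described. Itgb2 itself was not called with CALM-AF10 off.

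The promoter windows of Itgam, Itgb2l and Itgax are shown because these genes moved with DOX, and Itgam and Itgb2l in the same direction in every comparison in which both were called. Windows run from 250 bases before to 50 bases after the start, from RefSeq on GRCm38.p6, and 20 of the 33 members had one (22 windows). Capitals mark the PU.1 core GAGGAAG on either strand (CTTCCTC when read on the other strand). Itgam is at chr7:128062390-128062689, plus strand, Itgb2l at chr16:96443565-96443864, minus strand and Itgax at chr7:128129300-128129599, plus strand.
Itgam promoter: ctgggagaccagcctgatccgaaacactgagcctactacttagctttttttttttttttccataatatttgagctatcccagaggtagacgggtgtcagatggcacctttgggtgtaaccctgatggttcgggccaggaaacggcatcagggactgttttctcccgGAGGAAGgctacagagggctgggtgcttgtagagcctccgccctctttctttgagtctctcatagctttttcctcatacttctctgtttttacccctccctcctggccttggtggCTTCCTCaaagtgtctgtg
Itgb2l promoter: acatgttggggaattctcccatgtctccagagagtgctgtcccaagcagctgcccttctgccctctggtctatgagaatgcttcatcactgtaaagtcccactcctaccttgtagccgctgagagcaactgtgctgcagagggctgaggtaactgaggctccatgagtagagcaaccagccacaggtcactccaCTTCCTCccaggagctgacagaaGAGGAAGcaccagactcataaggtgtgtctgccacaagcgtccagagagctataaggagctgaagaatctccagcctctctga
Itgax promoter: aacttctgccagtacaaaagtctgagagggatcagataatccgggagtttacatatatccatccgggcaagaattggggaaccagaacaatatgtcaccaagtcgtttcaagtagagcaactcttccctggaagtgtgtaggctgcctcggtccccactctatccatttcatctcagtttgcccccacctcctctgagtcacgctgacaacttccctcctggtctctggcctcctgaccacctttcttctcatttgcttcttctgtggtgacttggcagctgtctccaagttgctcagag
In the Itgam window the core starts at -84 and 32, and in the Itgb2l window at -56 and -33, counted from the start with no position 0. The Itgax window holds none. Of the members with a window, 7 genes had the core (7 of 22 windows): Itgam, Itgb2l, Itgb7, Itgav, Itga2b, Cd44 and Spp1. The same letters were found in 13.6% of all 32851 windows. The RUNX letters TGTGGT were in 5 member genes (Itgax, Itga3, Itga4, Fermt3, Spp1) and in 16.8% of all windows. A match describes the letters only, and binding was not measured.

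Among the β1 family, Itga1, the α subunit of a collagen receptor, was called in 3 comparisons. The MLL-AF10 libraries had 9.10, 9.34 and 9.32 deposited log2 units in DOX libraries, against 8.67, 8.90 and 8.87 in DMSO libraries (log2 difference 0.44 ± 0.06 SE, limma adjusted p = 2.02e-04). In MLL-AF9 it had 8.64, 10.7 and 10.8 FPKM in DOX libraries, against 5.98, 5.83 and 6.89 in DMSO libraries (log2 difference 0.61 ± 0.14 SE, limma adjusted p = 0.0313). DOX libraries stood above DMSO libraries in both, but the MLL-AF9 call was lost without DOX 2, DOX 3 or any 1 DMSO library (adjusted p up to 0.106). In the Jak1 experiment it had 550.2, 453 and 446 scaled counts in null libraries, against 571, 553 and 546 in floxed libraries (log2 fold change -0.21 ± 0.06 SE, edgeR adjusted p = 0.00727). Null replicate 1 lay inside the floxed range, and the call was lost without null replicate 3 (adjusted p = 0.0747). Off libraries averaged 1712 ± 213 and on libraries 1487 ± 162 scaled counts of Itga1 (SD, n = 3 each), which was not called.

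Itgb1, the shared β1 chain, was tested in every table and not called in any. Its log2 fold change was -0.11 with CALM-AF10 off, -0.04 in Jak1 null cells, 0.01 in MLL-AF10 and -0.18 in MLL-AF9. Itga4, the α chain of the VCAM-1 receptor VLA-4, was called in 1 comparison, and fell. It had 10.89, 10.84 and 10.89 deposited log2 units in DOX libraries, against 11.08, 11.16 and 11.22 in DMSO libraries (log2 difference -0.28 ± 0.04 SE, limma adjusted p = 6.27e-05), and the groups did not overlap. Its changes of -0.18, -0.04 and -0.16 in CALM-AF10, Jak1 and MLL-AF9 cells were not called, and no difference between models was tested. Itga6, a laminin receptor chain, fell by 0.41 on the log2 scale in Jak1 null cells (edgeR adjusted p = 2.90e-10), with 1544 to 1640.3 scaled counts in null and 2044 to 2161 in floxed libraries. Itga5, the α chain of the fibronectin receptor, fell by 0.13 there (adjusted p = 0.0176), a call lost with DESeq2 (adjusted p = 0.0915) and without null 1 or floxed 3. In MLL-AF10, Itga6 differed by -0.10 (limma adjusted p = 0.13), and with the replicate number as a block it was called (adjusted p = 0.0109), as it was without DMSO replicate 1 (difference -0.16, adjusted p = 0.00247). Itga2 had 0 to 5 raw counts in any library of the count tables, Itga3 0 to 12 and Itga9 0 to 14.

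Itgb7 encodes the chain that pairs with α4 for gut homing and with αE for E-cadherin. In Jak1 null cells it had 416, 442 and 498 scaled counts in null libraries, against 926, 915 and 813 in floxed libraries, so that null libraries held about 0.511 of the floxed level (log2 fold change -0.97 ± 0.06 SE, edgeR adjusted p = 9.30e-15). All null libraries were below all floxed libraries. MLL-AF10 cells showed 9.78, 10.12 and 10.10 deposited log2 units in DOX libraries, against 9.83, 10.35 and 10.35 in DMSO libraries. Replicate 1 was low in both groups, and the difference of -0.18 was not called without the block (limma adjusted p = 0.292) and was called with it (adjusted p = 7.89e-07). Without DMSO replicate 1 the difference was -0.35 and was called with no block (adjusted p = 0.00105), and without any 1 library it ranged from -0.35 to -0.07. In off cells and in MLL-AF9 it was not called (log2 fold changes -0.05 and 0.03). Itgae, the αE chain, was tested only with CALM-AF10 off, with 17.8 to 23.7 scaled counts in off and 19.8 to 29.2 in on libraries, and was not called.

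In the αv and platelet integrin family, Itgb3 moved in opposite directions in the MLL models. This gene encodes the β chain of the platelet fibrinogen receptor and of the vitronectin receptor. For MLL-AF9 the values were 8.23, 7.58 and 6.51 FPKM in DOX libraries, against 2.62, 4.61 and 3.52 in DMSO libraries (log2 difference 0.90 ± 0.20 SE, limma adjusted p = 0.0272). In MLL-AF10 it had 7.13, 6.98 and 6.99 deposited log2 units in DOX libraries, against 7.25, 7.20 and 7.24 in DMSO libraries (log2 difference -0.20 ± 0.04 SE, limma adjusted p = 0.00314). Groups were apart in both tables, but the MLL-AF9 call was lost without DMSO 1, DMSO 3, DOX 1 or DOX 2 (adjusted p 0.0665 to 0.0824). Megakaryocyte markers (Pf4, Ppbp, Gp1ba, Gp9, Gp6) summed to 24.57 to 27.35 FPKM in DOX and 14 to 20.52 FPKM in DMSO libraries of MLL-AF9, without overlap, with neither of the 2 tested, Pf4 and Ppbp, called and Gp1ba and Gp6 at the lowest value of the table. In MLL-AF10 their linear sum was 19.77 to 20.75 in DOX and 20.13 to 20.72 in DMSO libraries, with Pf4 tested and not called. Their part in the values of Itgb3 was not tested. Itgb5, another partner of αv, had 739, 727 and 691 scaled counts in null libraries, against 508, 465 and 491 in floxed libraries (log2 fold change 0.56 ± 0.05 SE, edgeR adjusted p = 1.46e-10). Itgav, the αv chain, fell in the same null cells by 0.43 on the log2 scale (adjusted p = 6.05e-06), with 294 to 320.5 scaled counts in null and 390.0 to 444 in floxed libraries. In MLL-AF10 Itgb5 differed by -0.15 (limma adjusted p = 0.0552, and 7.12e-05 with the replicate block), and without DMSO replicate 1 by -0.22 (adjusted p = 0.000875).

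Itga2b, the αIIb chain of the platelet receptor, fell slightly with CALM-AF10 off, with 7824, 7155 and 7449 scaled counts in off libraries, against 9039, 8417 and 8562 in on libraries (log2 fold change -0.21 ± 0.05 SE, edgeR adjusted p = 0.0399). No off library reached the on range, but the call was lost without on 1, on 2, on 3 or off 2 (adjusted p 0.107 to 0.141). The same megakaryocyte markers summed to 1090 to 1491 scaled counts in off and 1277 to 1666 in on libraries, with 0 of 5 called. Their part in the fall of Itga2b was not tested.

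The 2 CALM-AF10 systems held different members. In the inducible cells Itga2b had 3143 to 12027 raw counts and Itgb3 784 to 2498, whereas in the Jak1 experiment Itga2b had 2 to 8 and Itgb3 5 to 10. Cdh2 had 30 to 322 raw counts in the inducible cells and 0 in all 6 libraries of the Jak1 experiment, whereas Itgad had 0 to 11 in the inducible cells and 219 to 1182 in the Jak1 experiment. Megakaryocyte markers were also low in the Jak1 experiment, at 12.2 to 24.6 summed scaled counts in null and 131 to 144 in floxed libraries, with Gp6 at 0 and the 2 tested, Ppbp and Pf4, lower in null cells. The tables were scaled separately, and no test was made across them.

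Of the cytoplasmic linkers, Tln1 and Fermt3 were among the most abundant members per length, whereas Vcl ranked 15 in on libraries and 16 in floxed and MLL-AF9 DMSO libraries. Tln1 encodes talin, Fermt3 encodes kindlin-3 of blood cells, and Vcl encodes vinculin. In the Jak1 experiment all 3 fell: Tln1 by 0.12 (edgeR adjusted p = 0.00154), Fermt3 by 0.09 (adjusted p = 0.0166) and Vcl by 0.24 (adjusted p = 4.48e-05) on the log2 scale. The Fermt3 call was lost without null 2 or floxed 2 (adjusted p = 0.106 and 0.0536). Vcl had 815, 827 and 816 scaled counts in null libraries, against 973, 976 and 958 in floxed libraries, and the groups were apart. In MLL-AF9 Vcl had 25.0, 22.5 and 25.0 FPKM in DOX libraries, against 14.7, 14.5 and 15.1 in DMSO libraries (log2 difference 0.67 ± 0.09 SE, limma adjusted p = 0.0042), again without overlap. Vcl shares exon bases with Ap3m1 on the opposite strand and Tln1 with Creb3, and both neighbours also fell in null cells, with 778 to 843 scaled counts of Ap3m1 in null and 915 to 927 in floxed libraries, and 257 to 275 of Creb3 in null and 301 to 344 in floxed libraries. Reads from such overlaps cannot be told apart without strand, and the same holds for Itga4 with Cerkl, Itgav with Gm13684, Fermt3 with Trpt1, Icam1 with Mir1900 and Fn1 with Apol7d. Tln1 and Fermt3 were not called with DOX in MLL-AF10 or MLL-AF9, nor was any linker called with CALM-AF10 off. Without off replicate 3, the shallowest library there, Vcl was called higher in off cells (log2 fold change 0.17, edgeR adjusted p = 0.0225).

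Counter-receptors on neighbouring cells were led by Pecam1, which encodes the homophilic adhesion protein CD31. For MLL-AF10 the values were 9.46, 9.42 and 9.36 deposited log2 units in DOX libraries, against 9.84, 9.82 and 9.83 in DMSO libraries (log2 difference -0.42 ± 0.03 SE, limma adjusted p = 7.55e-07). The MLL-AF9 libraries had 15.9, 13.6 and 12.3 FPKM in DOX libraries, against 21.7, 22.3 and 22.2 in DMSO libraries (log2 difference -0.64 ± 0.11 SE, limma adjusted p = 0.0119), a call lost without DMSO replicate 2 (adjusted p = 0.0536). In both MLL models each DOX library was below every DMSO library. Jak1 null cells went the other way, with 3220.3, 3102 and 3091 scaled counts in null libraries, against 2033, 2062 and 2001 in floxed libraries (log2 fold change 0.63 ± 0.03 SE, edgeR adjusted p = 8.45e-16). With CALM-AF10 off it averaged 9818 ± 176 in off libraries and 9912 ± 157 in on libraries (SD, n = 3 each) scaled counts and was not called. Endothelial markers, which mark the other main source of CD31, summed to 0.05 to 0.360 FPKM in DOX and 0.05 to 0.861 FPKM in DMSO libraries of MLL-AF9, where 0.05 is the floor for the 5 genes. In scaled counts they summed to 57.2 to 65.0 in null and 66.3 to 95.4 in floxed libraries. The sums were 36.3 to 42.7 in off and 50.1 to 69.8 in on libraries. In MLL-AF10 the linear sum was 5.91 to 5.93 in DOX and 5.91 to 5.95 in DMSO libraries. Their part in the values of Pecam1 was not tested.

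Icam2, a ligand of LFA-1, rose in Jak1 null cells and fell in MLL-AF9. It had 619, 692 and 637 scaled counts in null libraries, against 587, 577 and 538 in floxed libraries (log2 fold change 0.19 ± 0.05 SE, edgeR adjusted p = 0.003). MLL-AF9 cells showed 23.0, 31.2 and 19.8 FPKM in DOX libraries, against 35.5, 43.9 and 37.3 in DMSO libraries (log2 difference -0.66 ± 0.17 SE, limma adjusted p = 0.0469). Groups did not overlap, yet the MLL-AF9 call was lost without any 1 library other than DOX 2 (adjusted p 0.0894 to 0.149). Its difference in MLL-AF10, of -0.09, was not called (limma adjusted p = 0.0694), but was called with the replicate block (adjusted p = 0.0387) and without the trend in limma's moderation (adjusted p = 0.0499). Vcam1, the ligand of VLA-4, was near the floor, with 6 to 12 raw counts in null and 13 to 29 in floxed libraries (log2 fold change -1.12 ± 0.35 SE, edgeR adjusted p = 0.00831). Vcam1 passed the filter on low counts through its floxed libraries, and that call was lost with DESeq2 (adjusted p = 0.0687) and without null 2 or floxed 2. In MLL-AF9 Vcam1 had 2.54, 3.89 and 4.33 FPKM in DOX libraries, against 2.54, 2.08 and 1.49 in DMSO libraries, with overlap and no call.

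Icam1, the main ligand of LFA-1 and Mac-1, fell by 0.14 on the log2 scale in Jak1 null cells (edgeR adjusted p = 0.0213), with 592 to 634 scaled counts in null and 636 to 724 in floxed libraries. The call was lost with DESeq2 (adjusted p = 0.117) and without null 2, null 3 or floxed 1. In MLL-AF9 it had 20.8, 28.1 and 27.7 FPKM in DOX libraries, against 19.0, 16.1 and 17.8 in DMSO libraries, and the difference of 0.50 was not called (limma adjusted p = 0.0551), but was called without DOX replicate 1 (adjusted p = 0.0168) and with a stricter filter on low values (adjusted p = 0.0452). Its promoter window (chr9:21015690-21015989, plus strand) is shown because it was the only member window with the STAT letters TTCNNNGAA, which read the same on both strands and were in 8.3% of all windows. Capitals mark the match, at position -42.
Icam1 promoter: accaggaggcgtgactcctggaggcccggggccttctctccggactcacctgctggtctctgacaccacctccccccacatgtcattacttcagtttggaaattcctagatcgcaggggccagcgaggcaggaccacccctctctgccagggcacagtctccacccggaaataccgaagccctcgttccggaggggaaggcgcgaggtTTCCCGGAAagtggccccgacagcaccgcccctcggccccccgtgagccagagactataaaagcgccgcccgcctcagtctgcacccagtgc
Neither the match nor its absence elsewhere says anything of STAT binding, which was not measured.

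Selplg encodes PSGL-1, the ligand of P-selectin on leukocytes, and it rose by 0.16 on the log2 scale in Jak1 null cells (edgeR adjusted p = 1.33e-04), with 4169.7 to 4438 scaled counts in null and 3862 to 3916 in floxed libraries. It was not called in the 3 fusion models. Cd44, the hyaluronan receptor, had 2283, 2302 and 2183 scaled counts in null libraries, against 2521, 2687 and 2547 in floxed libraries (log2 fold change -0.20 ± 0.04 SE, edgeR adjusted p = 3.58e-05), with no overlap. For MLL-AF9 the values were 80.4, 78.7 and 81.0 FPKM in DOX libraries, against 60.1, 66.1 and 64.4 in DMSO libraries (log2 difference 0.33 ± 0.07 SE, limma adjusted p = 0.0256). DOX libraries were above DMSO libraries, but the call was lost when any of the 6 libraries was left out (adjusted p 0.0571 to 0.0877).

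Spp1 encodes osteopontin, a secreted ligand of αv integrins, α4β1 and CD44, and ranked 1 per length among the members in on, floxed and MLL-AF9 DMSO libraries. It was called in all 4 comparisons, lower in 3 and higher in MLL-AF9. In Jak1 null cells it had 2117, 2974 and 3074 scaled counts in null libraries, against 14224, 16576 and 15172 in floxed libraries (log2 fold change -2.49 ± 0.07 SE, edgeR adjusted p = 6.37e-23). This fall to 0.178 of the floxed level was the largest among the members. With CALM-AF10 off it had 3867, 6513 and 6982 scaled counts in off libraries, against 8388, 13379.9 and 13330.3 in on libraries (log2 fold change -1.03 ± 0.23 SE, edgeR adjusted p = 0.0329). Off replicate 1 and on replicate 1 were each the lowest of their group, and the call was lost without on 2, on 3 or off 2 (adjusted p = 0.13, 0.137 and 0.0756). The MLL-AF10 libraries had 10.99, 10.69 and 10.70 deposited log2 units in DOX libraries, against 11.59, 11.69 and 11.68 in DMSO libraries (log2 difference -0.86 ± 0.06 SE, limma adjusted p = 2.26e-07). The MLL-AF9 libraries had 4587, 5096 and 5061 FPKM in DOX libraries, against 2655, 2279 and 2402 in DMSO libraries (log2 difference 1.01 ± 0.14 SE, limma adjusted p = 0.00493). DOX libraries were thus below all DMSO libraries in MLL-AF10 and above them in MLL-AF9.

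The first of the 2 Spp1 windows (chr5:104434861-104435160, plus strand) is shown because Spp1, like Itgb2l, was called in every comparison. Capitals mark the PU.1 core at position -113.
Spp1 promoter: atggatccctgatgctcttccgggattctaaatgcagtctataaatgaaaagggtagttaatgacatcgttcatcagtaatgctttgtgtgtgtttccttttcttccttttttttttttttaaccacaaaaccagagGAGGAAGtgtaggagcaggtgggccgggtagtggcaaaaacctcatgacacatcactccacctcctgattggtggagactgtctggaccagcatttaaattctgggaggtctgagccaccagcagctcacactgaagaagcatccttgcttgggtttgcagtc
The RUNX letters also occur in this window at -128, on the other strand.

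Fn1 encodes fibronectin, the matrix ligand of the α5β1 and α4β1 integrins. MLL-AF10 cells showed 9.73, 9.95 and 9.97 deposited log2 units in DOX libraries, against 8.83, 9.13 and 9.10 in DMSO libraries (log2 difference 0.86 ± 0.07 SE, limma adjusted p = 1.06e-06). In Jak1 null cells it had 1169.7, 1187 and 1236 scaled counts in null libraries, against 863, 899.8 and 739 in floxed libraries (log2 fold change 0.52 ± 0.05 SE, edgeR adjusted p = 1.72e-09). Both tables showed no overlap between groups. MLL-AF9 cells showed 6.83, 11.2 and 9.94 FPKM in DOX libraries, against 5.83, 5.02 and 5.76 in DMSO libraries, and the difference of 0.64 was not called (limma adjusted p = 0.0695), but was called without DOX replicate 1, the shallowest library (difference 0.82, adjusted p = 0.0187). Off libraries had 788, 926 and 1152 scaled counts, against 887, 749 and 691 in on libraries, with overlap and no call. In MLL-AF10 replicate 1 was the lowest of both groups for Fn1 and Itga1. Of 9 stromal or fibroblast markers, 3 were tested in the Jak1 experiment, where Pdgfrb and Cxcl12 rose and Lepr fell, and the list summed to 281 to 322 scaled counts in null and 131 to 149 in floxed libraries. Most of that sum was Pdgfrb, with 240.1 to 289 scaled counts in null and 92.2 to 112 in floxed libraries, and Dcn and Lum were at 0 in all 6 libraries. In MLL-AF10, where Pdgfrb fell, the linear sum was 58.7 to 65.1 in DOX and 67.6 to 77.4 in DMSO libraries. With CALM-AF10 off the sum was 1742 to 2048 scaled counts in off and 2004 to 2170 in on libraries. Col3a1 reached 75.8 and Col1a2 61.6 in the highest off library, against at most 0.712 and 3.56 in on libraries. The step size of the scaled values places both maxima in off replicate 3, the shallowest library there (12130633 counts) and the highest in Fn1. In MLL-AF9 the sum was 0.738 to 1.21 FPKM in DOX and 0.653 to 0.946 FPKM in DMSO libraries. The part of these markers in the values of Fn1 was not tested.

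**Figure D3:**
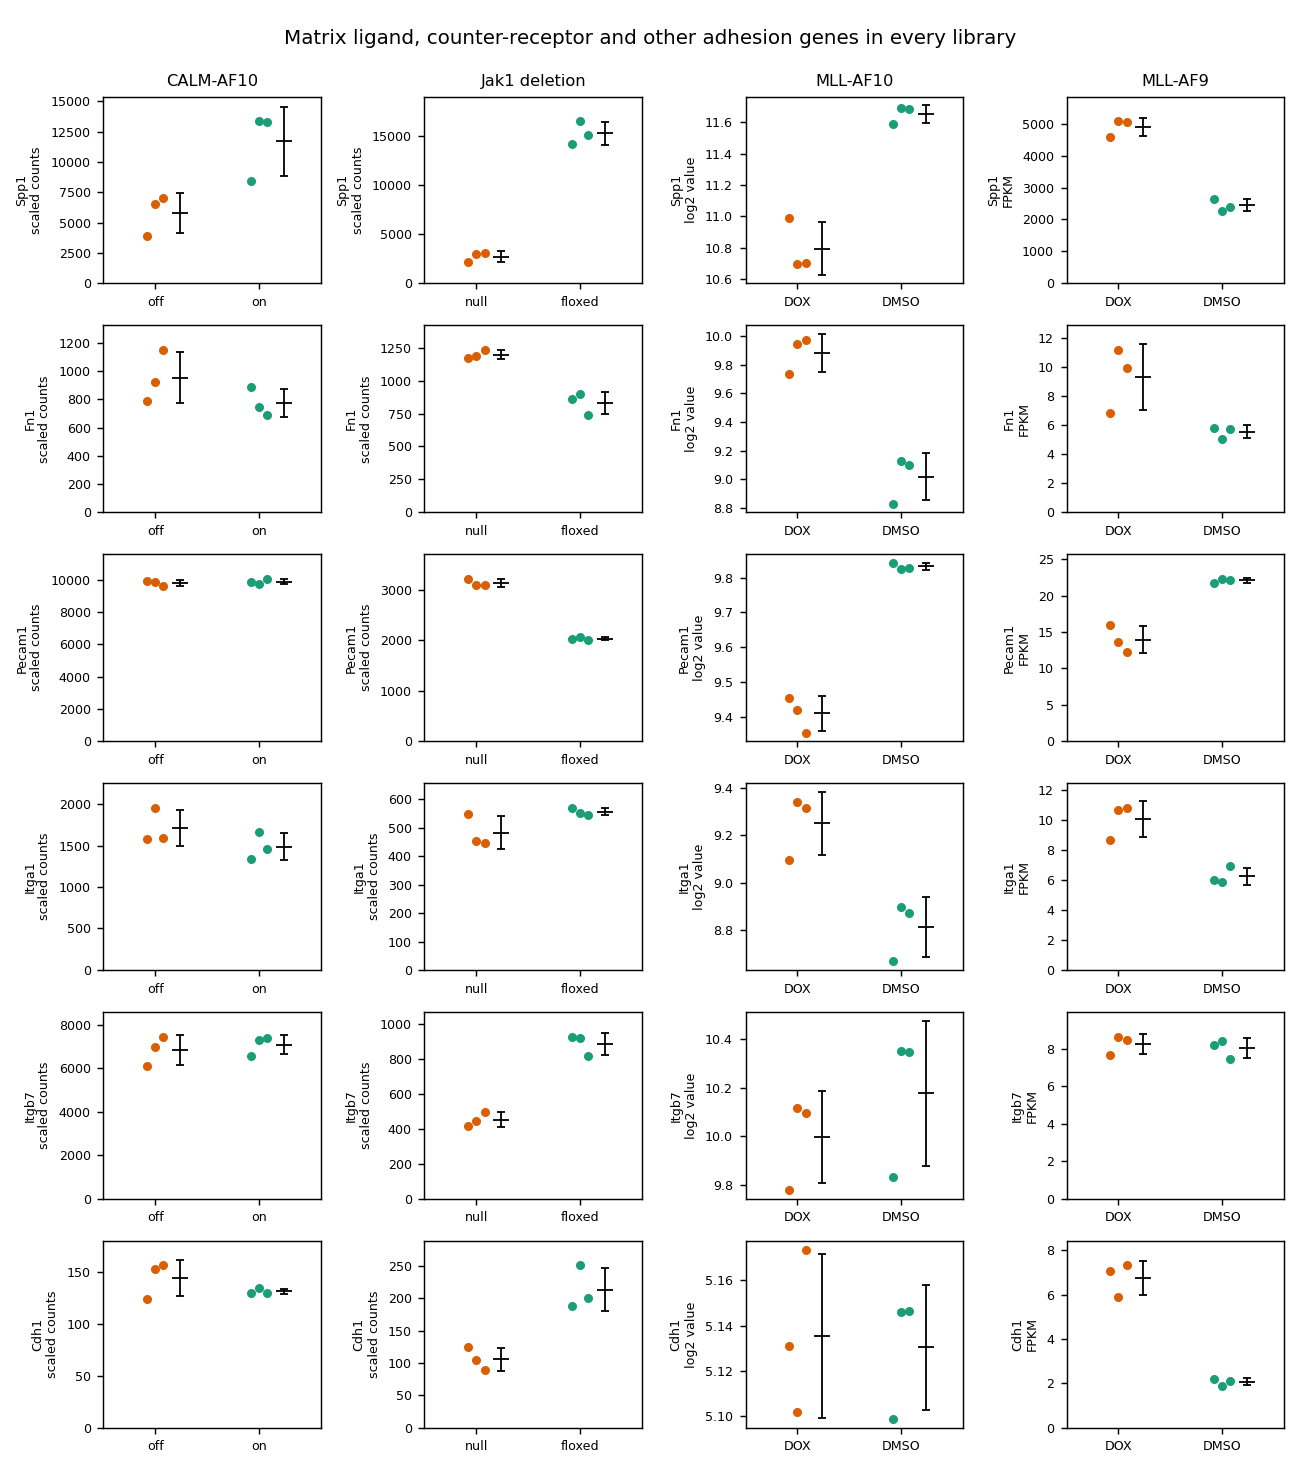
Points are single libraries of Spp1, Fn1, Pecam1, Itga1, Itgb7 and Cdh1 in the 4 experiments, with the group mean and SD beside them, on the same scales as in the plot of β2 integrin genes. Spp1 was lower in off, null and MLL-AF10 DOX libraries and higher in MLL-AF9 DOX libraries. In MLL-AF10, replicate 1 of both groups lies below replicates 2 and 3 for Fn1, Itga1 and Itgb7.

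The cadherins are calcium-dependent adhesion receptors, and E-cadherin is also the ligand of αEβ7. Cdh1, which encodes E-cadherin, had 125, 104 and 89.1 scaled counts in null libraries, against 188, 251 and 200.3 in floxed libraries (log2 fold change -1.02 ± 0.12 SE, edgeR adjusted p = 2.33e-08). In MLL-AF9 it had 7.06, 5.90 and 7.32 FPKM in DOX libraries, against 2.22, 1.89 and 2.12 in DMSO libraries (log2 difference 1.33 ± 0.16 SE, limma adjusted p = 0.00296). Null libraries were below all floxed libraries, and MLL-AF9 DOX libraries above all DMSO libraries. In off cells and in MLL-AF10 it was not called, with log2 fold changes of 0.12 and 0.01. Cdh2, which encodes N-cadherin, fell with CALM-AF10 off. It had 71.8, 85.4 and 71.1 scaled counts in off libraries, against 242, 222 and 229 in on libraries (log2 fold change -1.59 ± 0.12 SE, edgeR adjusted p = 1.45e-04). The groups were well apart, and the change lay between -1.69 and -1.52 when any 1 library was left out. Cdh2 was too low to test elsewhere, with 0.01 to 0.304 FPKM in DOX and 0.01 to 0.134 FPKM in DMSO libraries of MLL-AF9.

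Levels can be compared between genes only per length. After Spp1, at 7099 scaled counts per kb of exon in on libraries, came Fermt3 (5407), Tln1 (4812), Itgb2 (3130), Selplg (3026) and Itgb1 (2975). In floxed libraries the order after Spp1 (9299 per kb) was Itgb2 (2576), Fermt3 (2501), Selplg (1493), Itgam (1401) and Tln1 (1390). In MLL-AF9 DMSO libraries Spp1 had 2445 FPKM, followed by Itgb2 (210), Itgam (168), Tln1 (133), Fermt3 (127) and Itgb1 (95.5). Itgb2, which serves several α partners, was above each of Itgal, Itgam, Itgax and Itgad in these groups. Exon lengths are unions over annotated isoforms, so the order of near neighbours is approximate.

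**Figure D4:**
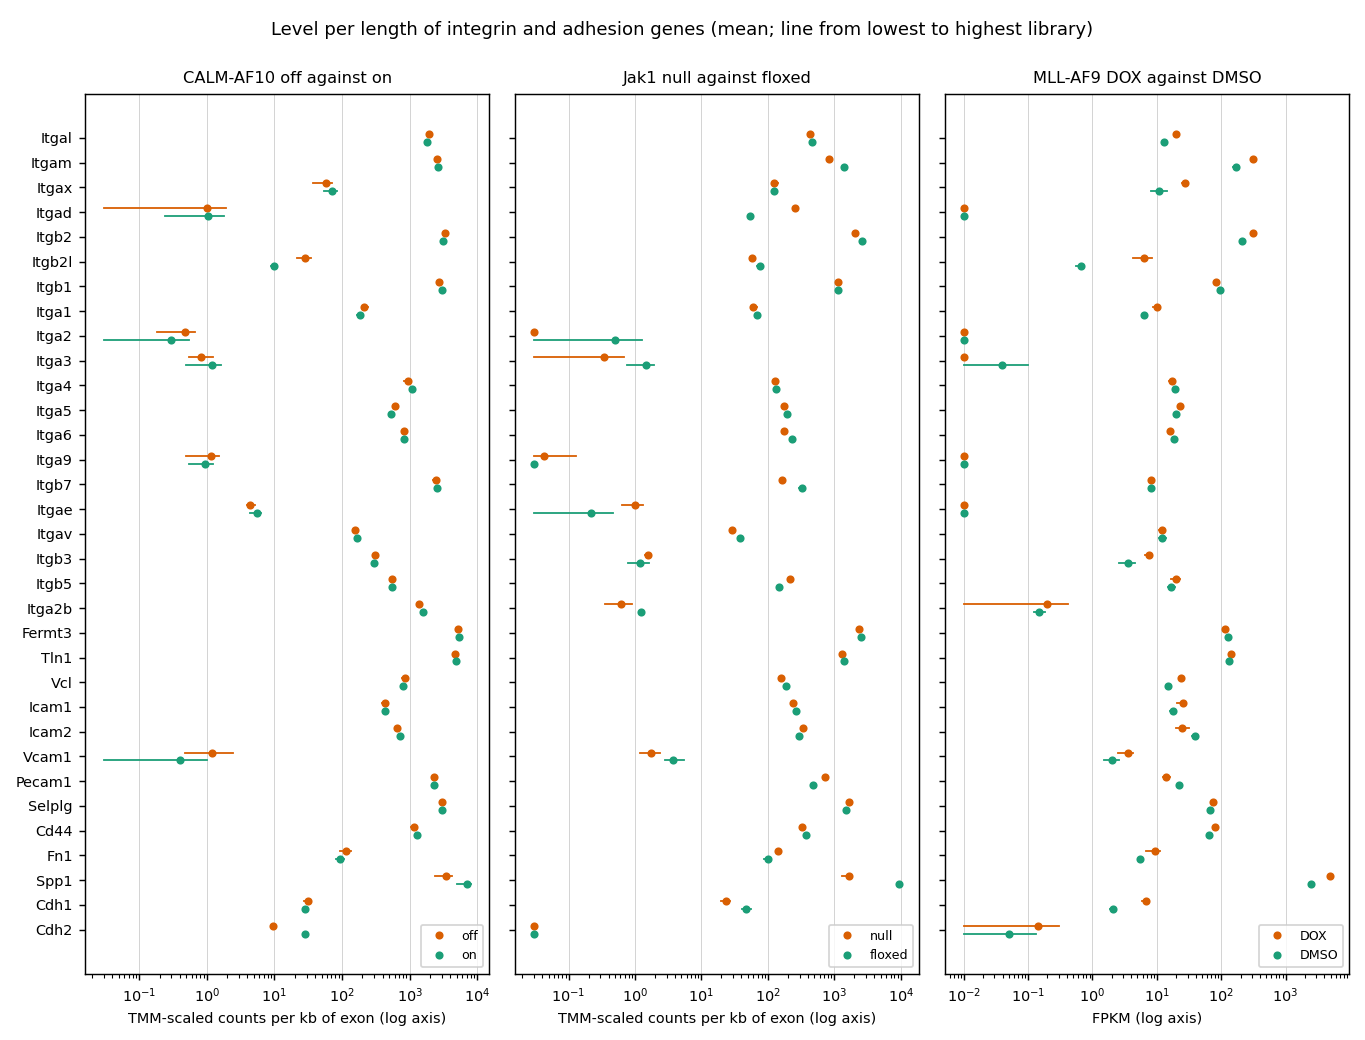
Points are group means of level per length for all 33 members, as TMM-scaled counts per kb of exon (CALM-AF10 and Jak1) or FPKM (MLL-AF9), on a log axis, with a line from the lowest to the highest library. Values of 0 are drawn at 0.03 per kb, and 0.01 FPKM is the lowest value of that table. Spp1 is the highest member in on, floxed and DMSO libraries, and Itga2, Itga3 and Itga9 lie near the floor.

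Other genes of the pathway, from lists that hold no member, gave a wider view. Of 28 integrin activation and linker genes, 2 rose and 1 fell of 23 tested with CALM-AF10 off, 6 rose and 10 fell of 24 in Jak1 null cells, 8 rose and 2 fell of 22 in MLL-AF10, and 5 rose and 1 fell of 22 in MLL-AF9. Actn1, which encodes the actin crosslinker α-actinin, rose with CALM-AF10 off (log2 fold change 0.29, edgeR adjusted p = 0.00842), fell in Jak1 null cells (-0.53, adjusted p = 1.47e-11) and rose in MLL-AF10 (0.41, limma adjusted p = 1.65e-05). These counts, and those of the lists that follow, stand beside 5.24%, 55.7%, 19.8% and 11.8% of all genes called in the CALM-AF10, Jak1, MLL-AF10 and MLL-AF9 comparisons, against which they are read. Of 17 signalling kinases and adaptors, 2 of 17 tested rose and 0 fell with CALM-AF10 off, 6 rose and 3 fell of 15 in Jak1 null cells, and 5 of 14 rose and 0 fell in each MLL model. The median log2 differences of these kinases and adaptors were 0.26 in MLL-AF9 and 0.06 in MLL-AF10, beside -0.02 and 0.0006 over all genes.

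Of 28 selectins, selectin ligand enzymes and other adhesion molecules, 0 rose and 2 fell of 21 tested with CALM-AF10 off, 5 rose and 11 fell of 22 in Jak1 null cells, 3 rose and 3 fell of 18 in MLL-AF10, and 5 rose and 0 fell of 17 in MLL-AF9. Of 20 further matrix ligands, 0 of 9 tested were called with CALM-AF10 off, 3 rose and 4 fell of 8 in Jak1 null cells, 3 rose and 1 fell of 7 in MLL-AF10, and 1 of 4 rose in MLL-AF9. Thbs1, which encodes the CD47 and integrin ligand thrombospondin-1, had 1198 to 1286 scaled counts in null and 12110 to 12850 in floxed libraries (log2 fold change -3.34, adjusted p = 1.99e-33). A list of 8 other genes held integrin subunits and Itgb1bp1, which encodes a protein that binds β1 integrin and is not a subunit. Itga8 fell in null cells, with 31.0 to 54.1 scaled counts in null and 242 to 273 in floxed libraries (log2 fold change -2.69, edgeR adjusted p = 8.63e-17). Itgb1bp1 rose in MLL-AF10 by 0.13 (limma adjusted p = 0.0272).

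The authors' deposited table of genes down in off cells can be set beside these calls. Its headers say off, whereas the MLL calls here are for DOX, and no label ties DOX to off. Its MLL-AF10 list of 966 symbols holds 8 members: Itgax, Itga4, Itgb7, Itgb3, Itgb5, Icam2, Pecam1 and Spp1. These are the 5 members called lower with DOX here and 3 of the 4 whose lower call was added by the replicate block. The authors' deposited MLL-AF9 list of 887 symbols holds Icam2 and Pecam1, the 2 members called lower with DOX here. The authors' deposited CALM-AF10 list of 359 symbols holds Spp1 and Cdh2, but not Itga2b. No member is in the authors' deposited list of 25 genes common to the 3 fusions, and Spp1 is in their list of 142 common to the AF10 fusions.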

How the data were processed

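RNA-seq was measured in 24 mouse libraries, in 8 groups of 3 read from the sample titles and column names. Bowtie 0.12.2 and the mm9 build are named per the submitters' processing notes, and the sources used here do not give the counting tool, its strand setting or the annotation. The authors deposited whole-number counts per gene for CALM-AF10 and for the Jak1 experiment, whose table is named FPKM but holds whole numbers, so the count test was used. In that table the columns headed DMSO were read as floxed, and those headed Jak1_Del as null. For MLL-AF10 the authors deposited normalized log2 values; the transformation is not given, and differences are probably compressed. FPKM values were deposited for MLL-AF9, with 0.01 in place of 0. The authors also deposited gene lists, used only as named lists. Of the tables' value columns, 0 were left unused.

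Counts were tested with edgeR 4.0.16 in R 4.3.3 (filterByExpr, TMM, quasi-likelihood test), log2 values with limma 3.58.1 (eBayes with trend, mean of at least 3.32, the log2 of 10), and MLL-AF9 with limma on log2(FPKM + 1), with a mean of at least 1 FPKM. Low genes change by more than that scale shows. Adjustment was by Benjamini-Hochberg over all genes of a table, at 0.05. Scaled counts are counts divided by TMM factors at the mean library size, and levels per kb use exon unions of the mm9 gene annotation (Gencode M1). Tables were scaled and tested separately. The programs were tested on simulated data.

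Replicate numbers were checked for pairing from the correlation of deviations from group means. In MLL-AF10 same-numbered libraries correlated at 0.397, 0.199 and 0.194, so the blocked value is given where it changes a call. In the other experiments at least 1 correlation was 0.1 or less. Alternatives were DESeq2 1.42.0, other scalings, filters and pseudocounts, a replicate block, and each library left out in turn.

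Members called in at least 2 comparisons, or in 1 with an absolute log2 fold change of at least 0.5 (0.3 for MLL-AF10), are given by library; members whose higher group mean was under 10 scaled counts or 1 FPKM are called low. Up to 4 genes of the smallest adjusted p may be named per further list, and some are not reported here. The members, lists and naming rule were chosen with earlier results of these data known.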

Additional observations from a re-analysis of the deposited data

Results flagged for a closer look

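In 5 members the MLL models moved apart: every DOX library lay on one side of every DMSO library in MLL-AF10 and on the other side in MLL-AF9. How many of all genes are split in this way was not counted. The differences below are DOX minus DMSO on each table's own log2 scale, and the difference between models was not tested. Spp1 changed by -0.86 in MLL-AF10 and by 1.01 in MLL-AF9. For Itgb3 the values were -0.20 and 0.90, and for Itgax -0.0719 and 1.32. Cd44 differed by -0.0645 in MLL-AF10, where it was not called, and by 0.33 in MLL-AF9. Fermt3 differed by 0.0553 and -0.15, and was called in neither. MLL-AF10 libraries are labelled polyA RNA and MLL-AF9 libraries total RNA, and input and fusion cannot be told apart.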

How the results depend on the processing

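Of the results recomputed under the alternatives, 1137 kept their side of the threshold, 60 lost a call and 13 gained one. None that was called with or without the alternative changed sign. Some of those not called did, such as Itgam with CALM-AF10 off (-0.11 to 0.02 when 1 library was left out). With CALM-AF10 off, leaving out 1 library gave 2 to 5 called members (4 with all libraries) and 146 to 944 called genes of all genes (648 with all libraries), and the replicate block gave 5 members, adding Itga1 (adjusted p = 0.0396), and 1048 genes. In MLL-AF10, 1307 to 2396 genes were called when 1 library was left out (2089 with all). In MLL-AF9, 648 to 1036 genes were called when 1 library was left out (1281 with all), and the block gave 781 genes and 10 members, without Itga1 (adjusted p = 0.0661), Itgb3 (0.063) and Cd44 (0.0748). In the Jak1 experiment the block gave 23 members and 6351 genes. No label gives same-numbered libraries a link beyond the number. In CALM-AF10, off replicate 1 correlated at 0.315 with on replicate 1 and at most at -0.179 with another on library. Off replicates 2 and 3 each correlated more with an on library of another number, so pairing there was not settled. Same-numbered libraries correlated at 0.0182 to 0.315 in CALM-AF10, -0.0158 to -0.00175 in the Jak1 experiment and -0.00711 to 0.0205 in MLL-AF9. Calls lost without the trend or the filter on low values were those of Itgax in MLL-AF10 (adjusted p = 0.0997 and 0.0519) and Icam2 in MLL-AF9 (0.0778 and 0.071), and without the trend Cd44 in MLL-AF9 (0.0667). Without the filter Itgal was lost in the Jak1 experiment (0.0575) and Itga1 in MLL-AF9 (0.057). Low members such as Vcam1 and Itgb2l rest on few counts, absolute depth is unknown for both MLL tables, and differences in MLL-AF10 are on a scale of unknown compression. The cause of these changes was not tested.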
